A study of Mus musculus with 6 samples.

Results

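The major urinary protein (Mup) family was taken as every gene and pseudogene on mouse chromosome 4 whose symbol begins with Mup followed by a digit or a hyphen, and its expression in livers of CREBH-KO mice was compared with that in wild-type (WT) livers. Of the 55536 genes in each count file, 48 met this rule: 22 protein-coding genes and 26 pseudogenes, in an array of 2194060 bp at chr4:59956804-62150863 (GRCm38). The 6 coding genes with the most divergent sequences (Mup3, Mup4, Mup5, Mup6, Mup20 and Mup21) lie at the ends of the array, and the other 16, called central here, lie between Mup6 and Mup5 and all read from the minus strand. The 3 CREBH-KO and 3 WT libraries were made from liver RNA of mice fasted for 14 h. CREBH, the product of Creb3l3, sits in the endoplasmic reticulum membrane of liver cells and, once cut free during fasting or stress, enters the nucleus as a transcription factor. The labels give neither the strain, sex and age of the mice nor which exons were deleted in which cells. Mup copies are known to differ between mouse strains, so counts on the copies of the reference genome can depend on the strain, which was not tested. The labels record a lost file of first reads for CREBH-KO 2 and CREBH-KO 3 without saying whether their counts come from read pairs or single reads, which can change how reads are placed among like copies. They call the 3 samples of a genotype independent without naming separate mice, so p-values measure the spread between these samples, which may be technical.

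Major urinary proteins are small lipocalins that hepatocytes secrete into blood and the kidney passes into urine, where their binding pocket carries volatile pheromones and releases them slowly. Adult male mice make far more of them than females, and their transcription is known to respond to pulsatile growth hormone acting through STAT5b, as well as to glucocorticoid, thyroid hormone and feeding. Central genes encode the bulk of the urinary forms, while Mup20 encodes darcin, a male protein that attracts females and is itself a pheromone.

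In fasted CREBH-KO livers all 16 central genes fell, and the 2 members with the most counts, Mup20 and Mup3, did not pass the test. Counts over the central copies were 4.03-fold lower, while counts over the whole family did not pass the test. The make-up of the family's counts differed: central held 2.66% to 4.97% of them in CREBH-KO libraries, against 13.6% to 16.3% in WT libraries. Reads that aligned to several places were not counted, so the central share of Mup RNA may be understated in both genotypes. Mup10 and Mup22 fell least of the central genes, by 0.55 on the log2 scale each.

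A stretch of 60 coding bases shows how alike the copies are and holds a base that, among the central copies, only Mup10 and Mup22 share. It lies within the second exon, is read from the minus strand (GRCm38), and was taken from the GENCODE M21 transcripts at chr4:60581521-60581580 for Mup10, chr4:60820848-60820907 for Mup22, chr4:60069733-60069792 for Mup7, chr4:61439065-61439124 for Mup15, chr4:61595193-61595252 for Mup17, chr4:60221902-60221961 for Mup8, chr4:62053480-62053539 for Mup20 and chr4:62150195-62150254 for Mup21. Bases that differ from Mup10 are in capitals.
Mup10: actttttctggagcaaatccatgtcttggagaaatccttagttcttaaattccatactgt
Mup22: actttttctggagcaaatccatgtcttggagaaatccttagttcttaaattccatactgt
Mup7: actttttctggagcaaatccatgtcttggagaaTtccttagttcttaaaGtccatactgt
Mup15: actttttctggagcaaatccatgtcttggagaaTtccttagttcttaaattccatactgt
Mup17: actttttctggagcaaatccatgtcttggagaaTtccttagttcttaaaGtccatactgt
Mup8: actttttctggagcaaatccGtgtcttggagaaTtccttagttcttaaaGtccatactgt
Mup20: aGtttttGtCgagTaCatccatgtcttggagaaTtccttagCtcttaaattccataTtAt
Mup21: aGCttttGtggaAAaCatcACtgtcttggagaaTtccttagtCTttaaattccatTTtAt

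Mup22 was identical to Mup10 over these bases, the central copies shown differed from Mup10 at 1 to 3 of them, and Mup20 and Mup21 differed at 9 and 14. A204T, counted from 1 at the start codon of Mup10 and written from the base of Mup10 to that of the other central copies, was the only coding position of Mup10 at which Mup10 and Mup22 share a base found in none of the other 14 central copies, and none of the 6 divergent genes had the base of the pair there. This search was made after the smaller fall of the pair had been seen, and it was not made for other pairs. In the same stretch Mup8 and Mup14, the latter not shown, share a G found in no other central copy (the first capital of Mup8). Their log2 fold changes were -2.39 and -2.27. Whether any of these bases bears on the falls was not tested. For identity over the coding sequence, bases lacking a partner counted as differing inside an alignment and were left out at its ends. The 120 pairs of central genes were 98.2% to 99.8% identical. Central genes matched the divergent ones at 83.4% to 91.3% (96 pairs), and the divergent ones matched each other at 83.6% to 94.8% (15 pairs).

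So close a likeness bears on every count of a single copy. Cut into overlapping stretches of 150 bases, Mup22 held none that occur in no other annotated transcript, Mup19 held 0.77%, Mup15 held 9.28%, Mup7 held 32.9% and Mup17, the central gene with the most, held 59.6%. Mup20 held 68.9%, and every such stretch of Mup3, Mup5 and Mup21 was its own. Shorter stretches gave lower shares, at 50 bases 21.9% for Mup17 and 49.5% for Mup20. HTSeq set aside the 13.7% to 15.02% of listed reads that aligned to several places, so a central level is the level of the reads that could be placed, and levels of single copies are uncertain. Central genes have less sequence of their own than Mup20 and Mup3. Shares of the family and the order of members by counts may thus understate the central genes. The sum over central does not depend on how placed reads were split among its copies.

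The libraries held 28106243 to 39288819 reads in genes, of which the Mup family took 0.990% to 1.15% in CREBH-KO libraries and 0.872% to 1.09% in WT libraries. Creb3l3 had normalised counts (CPM, scaled by effective library size) of 57.4, 45.03 and 46.4 in CREBH-KO 1, 2 and 3, against 467, 496 and 495 in WT 1, 2 and 3. No CREBH-KO library reached a WT library, and the gene was 9.79-fold lower in CREBH-KO livers (log2 fold change -3.29 ± 0.11 standard error, SE; adjusted p = 3e-06, edgeR). Xist stayed at or below 0.527 CPM in CREBH-KO and 0.310 CPM in WT libraries, and the Y-linked Ddx3y lay between 76.4 and 97.7 CPM in CREBH-KO and 67.7 and 70.3 CPM in WT libraries. The 6 hepatocyte markers examined showed 0 changes among 6 tested, and their summed level was 66682 to 71866 CPM in CREBH-KO libraries, against 55572 to 69809 CPM in WT libraries.

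A member was tested where its counts passed edgeR's filter on low counts, and called changed at an adjusted p under 0.05 over all 15589 genes tested. Of the 48 members, 31 were tested: 24 fell, 0 rose and 7 did not pass. Over all genes tested, 6.46% fell and 3.91% rose. All 16 central genes fell, with a median log2 fold change of -2.60, as did 8 of the 10 tested pseudogenes, but 0 of the 5 tested divergent genes (median 0.16); the median over all genes tested was 0.03. In each of the 24 members that fell, every CREBH-KO library lay below every WT library, a pattern shown by 15.7% of all genes tested but by 99.8% of the genes that fell, so it adds little to the call. Of these 24, 17 had at least 10 counts in every library, and 7 (Mup9 and the pseudogenes Mup-ps6, Mup-ps7, Mup-ps8, Mup-ps12, Mup-ps14 and Mup-ps17) had fewer in a CREBH-KO library, so that they entered the test through their WT counts. In bulk liver, fewer cells of a type and less RNA per cell cannot be told apart.

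**Figure D1:**
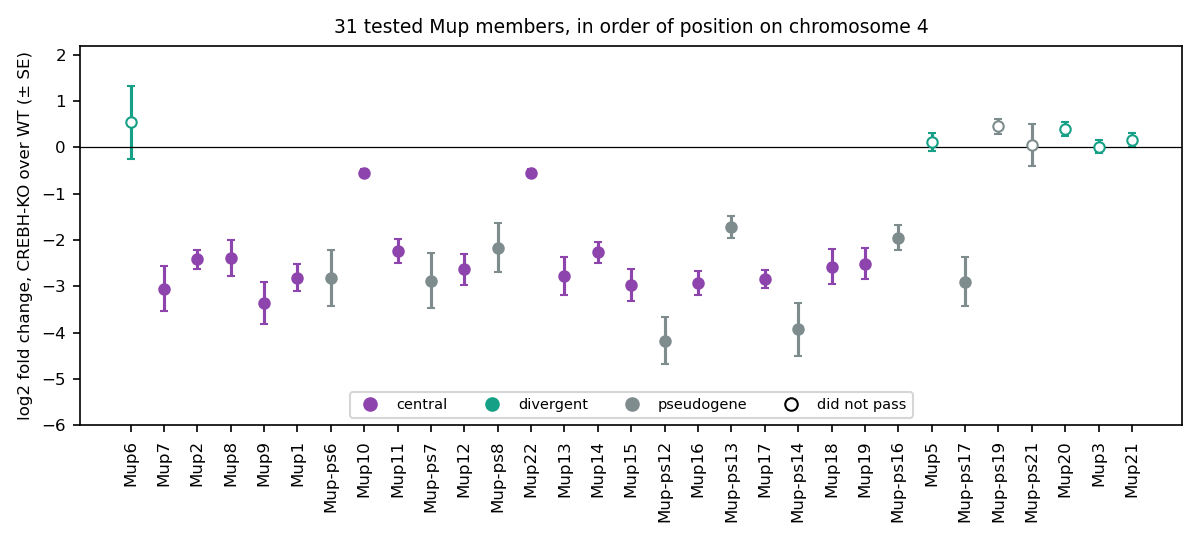
Log2 fold change (CREBH-KO over WT, vertical axis, ± SE) of the 31 tested members, ordered along the horizontal axis by position on chromosome 4 and coloured by class. Filled points passed the test and open points did not. All points from Mup7 to Mup-ps16 are filled, Mup-ps17 is filled among the open points of the right end, and Mup10 and Mup22 stand nearest to 0 of the filled points.

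Summed over all 48 members, the family had 10110, 10937 and 9678 CPM in CREBH-KO 1, 2 and 3, and 11066, 9783 and 8976 CPM in WT 1, 2 and 3. The ranges overlapped, and the sum did not pass the test (log2 fold change 0.04 ± 0.12 SE, adjusted p = 0.86, edgeR with the members replaced by their sum; exact permutation p = 0.8, two-sided). The sign of this value turned with single libraries, at -0.03 without WT 3 and -0.01 without CREBH-KO 2. Mup20 and Mup3 together held 90.1% to 91.7% of the family's counts in CREBH-KO and 79.2% to 81.8% in WT libraries. The sum thus mostly follows these genes and does not show that total Mup RNA was alike in both genotypes.

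The 16 central genes together had 269, 356 and 481 CPM in CREBH-KO 1, 2 and 3, against 1800, 1432 and 1219 CPM in WT 1, 2 and 3. The highest CREBH-KO library stood well below the lowest WT library. The mean was 369 ± 106 CPM in CREBH-KO and 1484 ± 294 CPM in WT livers (SD, n = 3 each; log2 fold change -2.01 ± 0.21 SE, adjusted p = 8.76e-04). In that fit, with class sums in place of members, 10.2% of all features changed in either direction. Without Mup10 and Mup22, an alternative chosen after their values were seen, the central sum had a log2 fold change of -2.81 (adjusted p = 0.00217), and without Mup7 one of -1.47 (adjusted p = 0.000579).

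The 6 divergent genes together had 9445, 10087 and 8903 CPM in CREBH-KO 1, 2 and 3, and 8944, 8028 and 7460.1 CPM in WT 1, 2 and 3. CREBH-KO 3 lay just below WT 1, so the genotypes overlapped, and the sum did not pass (log2 fold change 0.22 ± 0.11 SE, adjusted p = 0.269, edgeR). Since scaling cancels within a library, the ratio of the central sum to the divergent sum gives the shift directly: its log2 was -5.13, -4.82 and -4.21 in CREBH-KO 1, 2 and 3, against -2.31, -2.49 and -2.61 in WT 1, 2 and 3. Every CREBH-KO ratio was below every WT ratio, by 2.25 on the log2 scale on average, or 4.76-fold. The exact permutation p of this difference was 0.1 (two-sided), the smallest that 3 against 3 libraries allow. Without Mup7 the difference was -1.69.

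**Figure D2:**
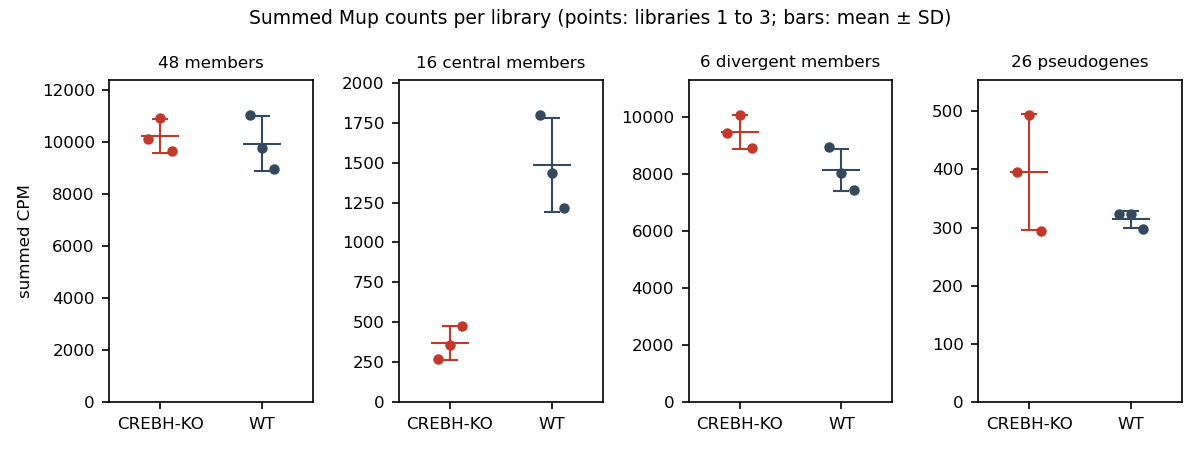
Summed CPM per library (vertical axes, each starting at 0) for all 48 members, the 16 central genes, the 6 divergent genes and the 26 pseudogenes, with CREBH-KO libraries left and WT libraries right. Points are libraries and bars the mean ± SD of 3. The genotypes are apart in the central panel, 369 ± 106 against 1484 ± 294 CPM, and overlap in the other 3 panels.

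**Figure D3:**
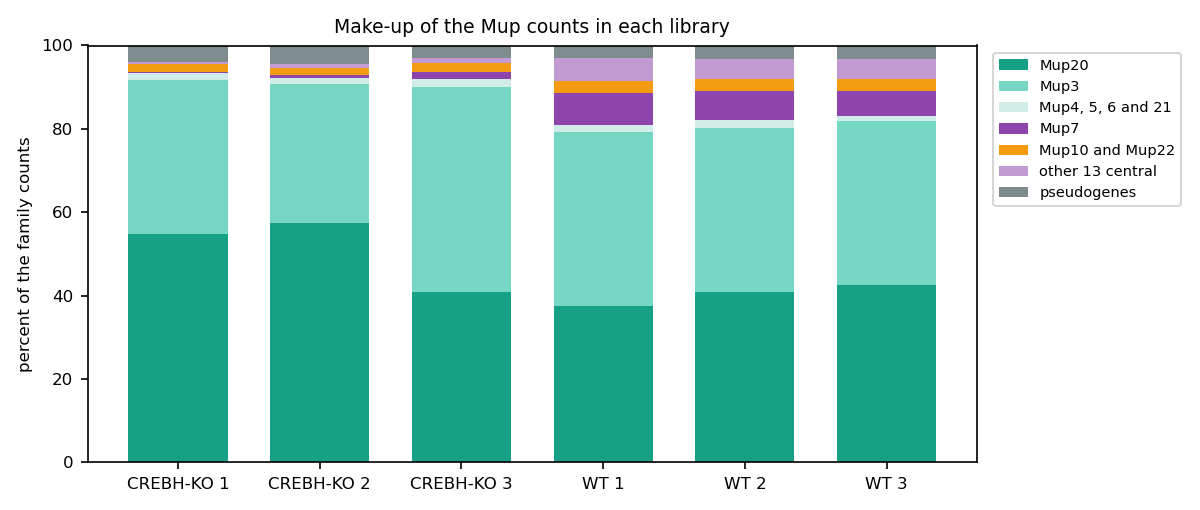
Percent of the family's counts (vertical axis) held by Mup20, Mup3, the other divergent genes, Mup7, Mup10 with Mup22, the other 13 central genes and the pseudogenes in each of the 6 libraries (horizontal axis). Mup20 and Mup3 together held 90.1% to 91.7% in CREBH-KO and 79.2% to 81.8% in WT libraries, and Mup7 held 0.288% to 1.55% in CREBH-KO and 5.91% to 7.81% in WT libraries.

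Mup7 (ENSMUSG00000073842, chr4:60066469-60070475, minus strand, GRCm38) was the most abundant central gene in WT livers. It had 29.2, 71.5 and 149.9 CPM in CREBH-KO 1, 2 and 3, against 865, 683 and 531 CPM in WT 1, 2 and 3. CREBH-KO 1 was the lowest library and WT 1 the highest, and the CREBH-KO libraries spread more widely, with CREBH-KO 3 at 5.14 times CREBH-KO 1, than the WT libraries, with WT 1 at 1.63 times WT 3. Mup7 was 8.29-fold lower in CREBH-KO livers (log2 fold change -3.05 ± 0.49 SE, adjusted p = 0.00572, edgeR). Without CREBH-KO 3 the log2 fold change was -3.79, and with edgeR's robust dispersion the adjusted p was 0.062.

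Mup10 and Mup22 followed it in WT livers and are described further on, and Mup11, Mup14, Mup15 and Mup17 came after them. Mup11 had 16.6, 23.7 and 35.3 CPM in CREBH-KO 1, 2 and 3, against 149.8, 111 and 94.5 CPM in WT 1, 2 and 3. Mup14 had 14.7, 25.2 and 31.9 CPM in the CREBH-KO libraries and 123, 118 and 105 CPM in the WT libraries, in the same order. For both, CREBH-KO 3 was the highest of its genotype and still under every WT library (Mup11 log2 fold change -2.23 ± 0.26 SE, adjusted p = 0.00135; Mup14 -2.27 ± 0.23 SE, adjusted p = 0.000697). Mup15 had 6.53, 14.4 and 19.8 CPM in CREBH-KO 1, 2 and 3, against 139, 96.4 and 85.5 CPM in WT 1, 2 and 3. Mup17, the central gene with the largest share of 150-base stretches of its own, had 6.67, 10.1 and 9.88 CPM in CREBH-KO libraries, against 80.8, 53.1 and 56.9 CPM in WT libraries. Again no library crossed over, and WT 1 was the highest of all 6 for both (Mup15 -2.98 ± 0.35 SE, adjusted p = 0.00134; Mup17 -2.84 ± 0.20 SE, adjusted p = 9.6e-05).

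The other 9 central genes were scarcer. Mup12 averaged 4.04 ± 1.95 CPM in CREBH-KO and 25.2 ± 7.98 CPM in WT livers, and Mup16 averaged 2.57 ± 0.355 CPM in CREBH-KO and 19.5 ± 7.30 CPM in WT livers (SD, n = 3 each). Mup1, whose product has been linked to glucose metabolism in mice, had 1.46, 1.08 and 2.08 CPM in CREBH-KO 1, 2 and 3, against 14.8, 8.92 and 8.91 CPM in WT 1, 2 and 3. All 3 genes fell, with log2 fold changes of -2.64 (Mup12), -2.93 (Mup16) and -2.81 (Mup1) and adjusted p-values of 0.0019, 0.000407 and 0.000719. Mup2, Mup8, Mup9, Mup13, Mup18 and Mup19 averaged at most 1.94 CPM in CREBH-KO livers and at most 10.1 CPM in WT livers. They fell as well, with log2 fold changes from -2.39 for Mup8 to -3.36 for Mup9 and adjusted p-values of 0.000263 (Mup2) to 0.00656 (Mup8). Leaving out Mup10 and Mup22, the 14 central genes were thus 4.70-fold to 10.3-fold lower in CREBH-KO livers.

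Mup10 (ENSMUSG00000078680, chr4:60578260-60582199) and Mup22 (ENSMUSG00000110439, chr4:60817589-60821463), both on the minus strand, were the exception in size. Mup10 had 80.6, 89.5 and 94.6 CPM in CREBH-KO 1, 2 and 3, against 143, 123 and 122 CPM in WT 1, 2 and 3. Mup22 had 103, 109 and 119 CPM in CREBH-KO libraries, against 179.8, 155 and 152 CPM in WT libraries. The libraries of each genotype stood close together and the genotypes did not overlap, with log2 fold changes of -0.55 ± 0.09 SE for both genes (1.47-fold lower; adjusted p = 0.00735 for Mup10 and 0.00723 for Mup22). The counts of the pair kept almost 1 ratio, Mup22 over Mup10 being 1.28, 1.22 and 1.26 in CREBH-KO 1, 2 and 3 and 1.26, 1.25 and 1.25 in WT 1, 2 and 3. Unlike this ratio, Mup7 over Mup10 was 0.362, 0.799 and 1.59 in CREBH-KO 1, 2 and 3, against 6.06, 5.54 and 4.34 in WT 1, 2 and 3. Of the 50-base stretches of Mup22, 92.9% also occur in Mup10. By coding sequence the pair differed at 4 of 543 aligned positions, Mup22 and Mup11 at 2, and Mup10 and Mup9 at 2. Bases lacking a partner inside the alignment count as differing, and Mup10 has 540 coding bases against 543 in Mup22. The 4 positions of the pair thus include this difference in length and do not show the pair to be less alike. No test of the difference between Mup10 or Mup22 and the other central genes was made, since the pair was singled out after its values were seen.

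Across the central genes the libraries of a genotype kept a loose order. CREBH-KO 1 was the lowest of all 6 libraries for 10 of the 16 genes, CREBH-KO 3 the highest of the CREBH-KO libraries for 13, and WT 1 the highest of all 6 for 14. These genes share reads and libraries, so the counts of genes are a description of the libraries and not repeated measurements.

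**Figure D4:**
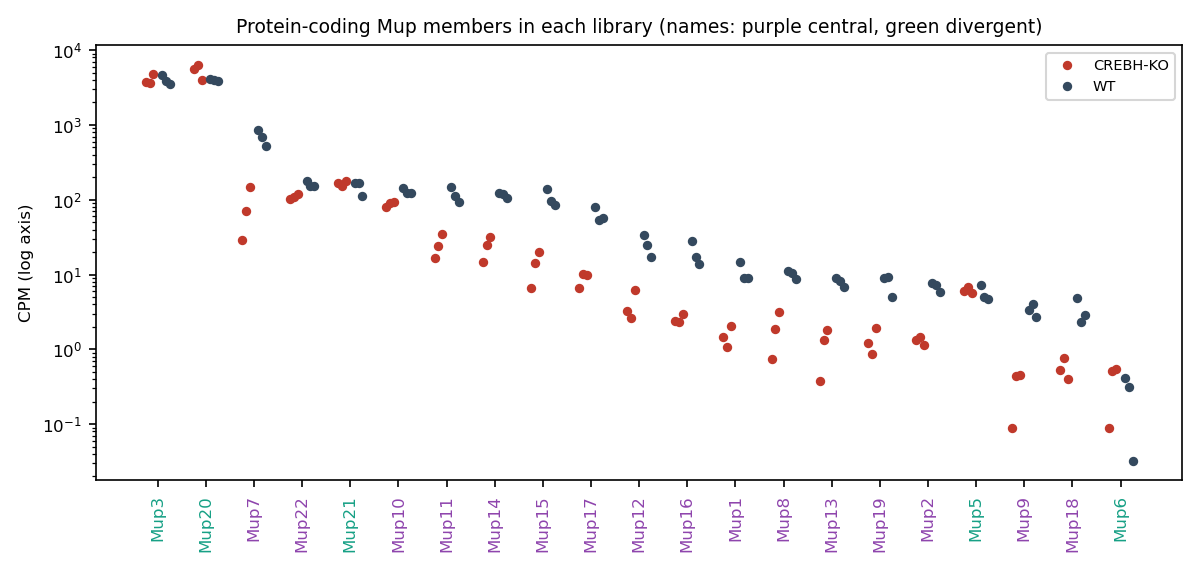
CPM of the 21 tested coding members in each library (vertical axis, log scale), ordered by their WT mean, with CREBH-KO points left of WT points for each gene. Names in purple are central and names in green divergent. The CREBH-KO points lie below the WT points for the 16 central genes, closest for Mup10 and Mup22, and overlap them for Mup3, Mup20, Mup21, Mup5 and Mup6.

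Mup20 (ENSMUSG00000078672, chr4:62050234-62054158, minus strand), the gene of darcin, had 5528, 6284 and 3959 CPM in CREBH-KO 1, 2 and 3, and 4151, 3990.2 and 3818 CPM in WT 1, 2 and 3. CREBH-KO 1 and 2 were above every WT library, but CREBH-KO 3 lay within the WT range, and the gene did not pass (log2 fold change 0.40 ± 0.16 SE, adjusted p = 0.151, edgeR). Without CREBH-KO 3 it passed, at 0.57 (adjusted p = 0.0425), and it also passed with no filter on low counts, at 0.38 (adjusted p = 0.0209). Mup3 (ENSMUSG00000066154, chr4:62083476-62087342, minus strand) had 3742, 3644 and 4757 CPM in CREBH-KO 1, 2 and 3, and 4616, 3866.5 and 3523 CPM in WT 1, 2 and 3. Here CREBH-KO 3 was the highest library and the other 5 were mixed (log2 fold change 0.02 ± 0.14 SE, adjusted p = 0.956). The ratio of Mup20 to Mup3 was 1.48, 1.72 and 0.832 in CREBH-KO 1, 2 and 3, and 0.899, 1.03 and 1.08 in WT 1, 2 and 3, so CREBH-KO 3 stood on the other side of the WT libraries from CREBH-KO 1 and 2. Gm12909, annotated as antisense and next to Mup3 without overlapping it, was not called either (log2 fold change 0.32, adjusted p = 0.301).

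The other divergent genes were far scarcer. Mup21 had 169, 152 and 181 CPM in CREBH-KO 1, 2 and 3, and 169, 166 and 114 CPM in WT 1, 2 and 3, an overlap (log2 fold change 0.16 ± 0.14 SE, adjusted p = 0.534). Mup5, known from lachrymal and salivary glands, averaged 6.12 ± 0.548 CPM in CREBH-KO and 5.63 ± 1.38 CPM in WT livers, and did not pass (adjusted p = 0.766). Mup6 averaged 0.382 CPM in CREBH-KO and 0.253 CPM in WT livers (adjusted p = 0.723), and Mup4, known from nasal tissue, had 4 counts over the CREBH-KO and 9 over the WT libraries and was not tested. Of the 3 gland markers examined, Prol1 and Lpo had 0 counts in all libraries, and Amy1, an amylase gene also expressed in liver, averaged 259 CPM in CREBH-KO and 250.2 CPM in WT livers and did not pass.

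Compared per kilobase of all annotated exons of a gene, the order of levels changed between the genotypes. In CREBH-KO livers Mup20 led with 5665 CPM per kb, followed by Mup3 (3790 CPM per kb), the pseudogene Mup-ps19 (746), Mup21 (247), Mup22 (128), Mup7 (80.9) and Mup10 (63.4). In WT livers Mup20 (4296 CPM per kb) and Mup3 (3747) were followed by Mup7 (671), Mup-ps19 (543), Mup21 (221), Mup22 (188), Mup15 (116) and Mup10 (93.0). Taken over libraries, the ranges of Mup20 and Mup3 overlapped in both genotypes. They were 4266 to 6771 and 3412 to 4454 CPM per kb in CREBH-KO libraries. In WT libraries they were 4114 to 4473 and 3299 to 4322 CPM per kb. Compared within a library, Mup20 lay above Mup3 per kb of exon in every WT library. In CREBH-KO 3 Mup20 lay below Mup3, at 4266 against 4454 CPM per kb, and in the other CREBH-KO libraries above it. By counts without a length, Mup20 did not lead in every WT library. The difference between these genes was not tested. By all exons (1033 bases for Mup7 and 1391 for Mup10), Mup7 held place 6 in CREBH-KO livers and place 3 in WT livers. The coding transcripts used for Mup7 and Mup10 both have 927 bases. At that length Mup10 (88.2 CPM) lies above Mup7 (83.5 CPM) in CREBH-KO livers. In WT livers Mup10 (129 CPM) then lies above Mup15 (107 CPM, 925 bases). Places among the central genes thus depend on the length used. The share of a member's sequence that is its own differs too, and these levels were not corrected for it, so the order is one of placed reads. In CREBH-KO libraries the range of Mup7, 28.2 to 145 CPM per kb of exon, took in those of Mup10 and Mup22 (120.0 to 139).

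Pseudogenes carry no intact reading frame but can be transcribed or can draw reads from a coding copy. Mup-ps19 held 97.2% to 98.7% of the pseudogene counts in CREBH-KO libraries and 88.7% to 91.3% in WT libraries. It had 387, 487 and 286 CPM in CREBH-KO 1, 2 and 3, and 287, 286 and 272 CPM in WT 1, 2 and 3, with the same order of CREBH-KO libraries as Mup20, and did not pass (log2 fold change 0.46 ± 0.16 SE, adjusted p = 0.112). Of its 50-base stretches, 89.8% also occur in Mup20, and its counts were 0.0700, 0.0775 and 0.0724 of those of Mup20 in CREBH-KO 1, 2 and 3 and 0.0692, 0.0717 and 0.0711 in WT 1, 2 and 3. It passed without CREBH-KO 3 (0.63, adjusted p = 0.022), with no filter (adjusted p = 0.00448) and in DESeq2 (adjusted p = 0.04).

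The 8 pseudogenes that fell (Mup-ps6, Mup-ps7, Mup-ps8, Mup-ps12, Mup-ps13, Mup-ps14, Mup-ps16 and Mup-ps17) together had 8.08, 5.14 and 6.79 CPM in CREBH-KO 1, 2 and 3, against 33.8, 33.9 and 24.3 CPM in WT 1, 2 and 3. These genes were picked for having fallen, so the order of the sums follows from the choice. Mup-ps16, the most abundant, had 5.50, 2.50 and 3.79 CPM in CREBH-KO libraries, against 16.99, 17.4 and 11.6 CPM in WT libraries (log2 fold change -1.96 ± 0.27 SE, adjusted p = 0.00288). It shares 44.0% of its exonic bases with Gm13775, a transcript of the same strand that also fell (3.09 ± 0.562 CPM in CREBH-KO and 10.3 ± 2.61 CPM in WT livers; log2 fold change -1.74 ± 0.23 SE, adjusted p = 0.00219). The others ran from -1.72 for Mup-ps13 (adjusted p = 0.00336) to -4.17 for Mup-ps12 (adjusted p = 0.00154). Mup-ps17 has only 218 exonic bases, and 45.0% of its 50-base stretches also occur in each of the central genes Mup9, Mup10, Mup11, Mup17, Mup18 and Mup22. The calls of Mup-ps6, Mup-ps7 and Mup-ps8 were each lost when single libraries were left out. Single libraries also moved some of these folds by over 1.5 times: Mup-ps6 was at -3.68 without CREBH-KO 1, Mup-ps7 at -4.01 without CREBH-KO 2, and Mup-ps14 and Mup-ps17 at -4.51 and -3.85 without CREBH-KO 3. Mup-ps21 averaged 0.698 CPM in CREBH-KO and 0.675 CPM in WT livers and did not pass (adjusted p = 0.96).

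Of the 17 members not tested, 16 were pseudogenes. The 6 members at 0 counts in all libraries were Mup-ps3, Mup-ps5, Mup-ps24, Mup-ps26, Mup-ps28 and Mup-ps29. The other 11 had 2 to 46 counts each, in total 53 over the CREBH-KO and 132 over the WT libraries.

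Log2 fold changes of like size were found for central genes with little and with more sequence of their own. Mup19, with 0.77% of its 150-base stretches its own, had a log2 fold change of -2.51, and Mup17, with 59.6%, one of -2.84. Mup22 and Mup10, with 0 and 27.7%, had -0.55 each. Of the 50-base stretches of Mup19, 83.0% also occur in Mup9, so its fold can hardly be measured apart from those of its copies. The part of shared reads in these folds was not tested. The own shares depend on the length of the stretch. At 50 bases they were 0% for Mup19 and Mup22, 21.9% for Mup17, 23.5% for Mup10 and 38.4% for Mup1.

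**Figure D5:**
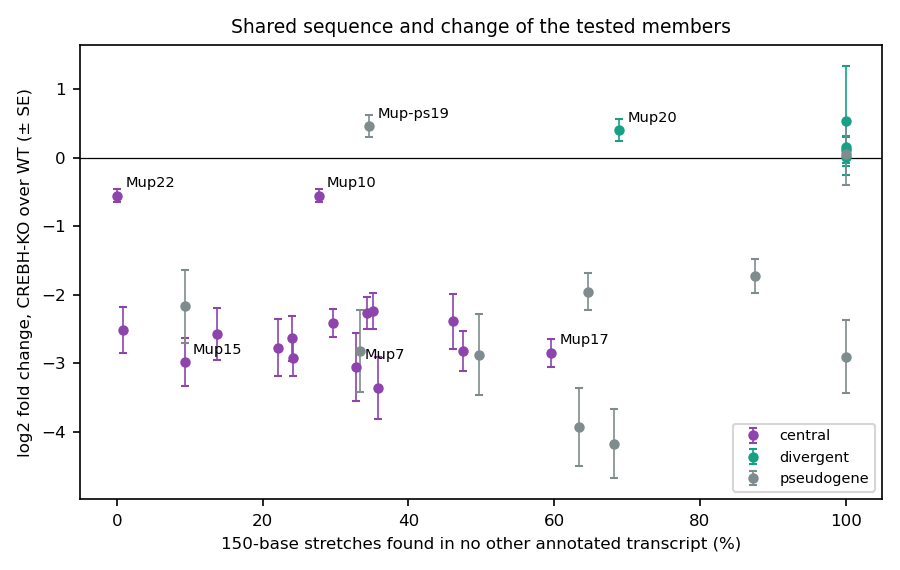
Log2 fold change (CREBH-KO over WT, vertical axis, ± SE) against the percent of a member's 150-base stretches that occur in no other annotated transcript (horizontal axis) for the 31 tested members, coloured by class. Central genes lie between -3.36 and -0.55 over a range of 0 to 59.6% own sequence. At 100% on this axis Mup3, Mup5, Mup6 and Mup21 lie between 0.02 and 0.54, Mup-ps21 at 0.05 and Mup-ps17 at -2.90. At 50 bases the own share of Mup-ps17 is 39.6%.

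Promoters were available for 14 of the 22 coding members from the RefSeq table (GRCm38.p6; 250 bases before to 50 after the annotated start). They are shown because the central genes fell together while the tested divergent ones did not pass. The divergent genes Mup20 and Mup5 and the central gene Mup22 are among those without one, so the comparison leaves out the member with the most counts. Promoters of central genes were 89.9% to 99.0% identical with each other (45 pairs) and 73.7% to 88.6% with those of divergent genes (40 pairs). Ends lacking a partner were left out, so pairs rest on unequal lengths, from 163 aligned positions (Mup7 with Mup9) to 301 (Mup2 with Mup19). The 88.6% is that of Mup6 with Mup7 over 201 positions. The divergent promoters are those of Mup3, Mup4, Mup6 and Mup21, of which Mup4 was not tested and Mup6 was scarce. The 100 bases around the letters TATATAA, in capitals, are given for Mup15 (chr4:61439700-61439799), Mup10 (chr4:60582156-60582255), Mup3 (chr4:62087299-62087398) and Mup21 (chr4:62150820-62150919), all from the minus strand.
Mup15: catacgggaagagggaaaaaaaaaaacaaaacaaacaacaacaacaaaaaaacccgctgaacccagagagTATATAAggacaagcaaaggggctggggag
Mup10: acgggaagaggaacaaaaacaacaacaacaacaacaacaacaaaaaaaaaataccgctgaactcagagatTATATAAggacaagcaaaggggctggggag
Mup3: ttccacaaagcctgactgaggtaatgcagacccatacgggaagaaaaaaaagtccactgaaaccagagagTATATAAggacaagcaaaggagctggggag
Mup21: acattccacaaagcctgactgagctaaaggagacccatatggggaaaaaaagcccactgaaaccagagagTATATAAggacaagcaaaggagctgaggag

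Searched on both strands, the letters TATATAA, chosen after the promoters had been read, were found in 13 of the 14 promoters and in 3.24% of all 32851 promoters of the table. The STAT-type letters TTCNNNGAA (8.3% of all promoters), the cyclic-AMP response element TGACGTCA (1.79%), TGACGTG (2.01%), TTACGTAA (0.12%) and TTGCGCAA (0.18%) were in none of the 14 windows, and TATAAA (13.62%) was in those of Mup4 and Mup6, where it overlaps TATATAA. The annotated starts differ among copies, and the window of Mup7 ends in bases that lie before TATATAA in the other copies, so it could not show these letters. These are matches of letters in short windows and say nothing of the factors.

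Genes within 1 Mb of the array served as a check of the region. Of 47 such genes outside the array, 20 were tested, 2 rose, 0 fell, and the median log2 fold change was 0.04. Among all genes tested, 3.91% rose and 6.46% fell. Hsdl2, which encodes a peroxisomal dehydrogenase-like protein, rose to 182 ± 23.9 CPM in CREBH-KO livers, against 128 ± 22.3 CPM in WT livers (adjusted p = 0.0484). Ambp, a lipocalin gene for alpha-1-microglobulin and bikunin, rose to 2626 ± 111 CPM, against 2092 ± 79.0 CPM in WT livers (log2 fold change 0.33 ± 0.09 SE, adjusted p = 0.0465). Of the 12 tested genes of other lipocalins and ligand carriers of plasma, only Ambp rose, and C8g (236 ± 10.02 CPM in CREBH-KO and 304 ± 12.7 CPM in WT livers; adjusted p = 0.0181) and Orm3 (1.08 CPM in CREBH-KO and 6.84 CPM in WT livers; adjusted p = 0.00594) fell; the other 9, transthyretin and albumin among them, did not pass.

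Among 22 genes reported to regulate Mup transcription, 2 fell, 0 rose and 20 did not pass (median log2 fold change -0.21). Of all genes tested, 6.46% fell and 3.91% rose, and whether the list differs from these shares was not tested. Cebpa, a hepatocyte transcription factor, had 356, 349 and 389 CPM in CREBH-KO 1, 2 and 3, against 541, 544 and 655 CPM in WT 1, 2 and 3. Nr1d1, a repressor of the circadian clock, had 69.8, 52.1 and 58.4 CPM in CREBH-KO libraries, against 101, 126 and 107 CPM in WT libraries. Neither gene's libraries overlapped between genotypes (Cebpa -0.67 ± 0.10 SE, adjusted p = 0.0039; Nr1d1 -0.89 ± 0.12 SE, adjusted p = 0.00318). Every CREBH-KO library lay below every WT library for 15.7% of all genes tested.

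The genes of the growth hormone pathway did not pass. Ghr, its receptor, averaged 312 ± 23.7 CPM in CREBH-KO and 383 ± 24.1 CPM in WT livers (log2 fold change -0.30 ± 0.09 SE, adjusted p = 0.0668). Its libraries did not overlap, with CREBH-KO below WT as for 15.7% of all genes tested. Jak2, the kinase bound to the receptor, had a log2 fold change of -0.38 (adjusted p = 0.133), and Stat5b, the factor it activates, had 0.12 (adjusted p = 0.484). The feedback inhibitors Socs2 and Cish had -0.23 (adjusted p = 0.633) and -0.32 (adjusted p = 0.519), and the repressor Bcl6 had 0.51 (adjusted p = 0.532). These values do not show that the pathway was alike in both genotypes.

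Since Mup genes are male-biased, other sex-biased liver genes are given beside them. Of 20 tested male-biased genes, 3 rose and 7 fell (median log2 fold change -0.23), beside 3.91% and 6.46% of all genes tested. Selenbp2, a selenium-binding protein gene, had 40.8, 32.1 and 41.0 CPM in CREBH-KO 1, 2 and 3, against 263, 260.0 and 130.2 CPM in WT 1, 2 and 3. The cytochrome P450 gene Cyp2d9 averaged 901 ± 130 CPM in CREBH-KO and 1758 ± 97.7 CPM in WT livers. Both fell (Selenbp2 -2.52, adjusted p = 0.000571; Cyp2d9 -0.97, adjusted p = 0.00154), as did Ugt2b1 (-0.65, adjusted p = 0.00926) and Nudt7 (-0.96, adjusted p = 0.0148). Serpina1e, an alpha-1-antitrypsin gene with near-identical copies, rose to 10127 ± 1155 CPM in CREBH-KO livers, against 3299 ± 602 CPM in WT livers (adjusted p = 0.000474), and Gstp1, a glutathione transferase gene, rose as well (0.98, adjusted p = 0.00813).

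Of 16 tested female-biased genes, 5 rose and 0 fell (median 0.36), beside 3.91% and 6.46% of all genes tested. Cyp4a14 and Cyp4a10, which hydroxylate fatty acids and are also induced by fasting, rose to 11039 ± 1239 and 4193 ± 488 CPM in CREBH-KO livers, against 4652 ± 729 and 2958 ± 103 CPM in WT livers (adjusted p = 0.00127 and 0.0215). Acot3 (1.28, adjusted p = 0.00689), Cyp17a1 (1.31, adjusted p = 0.0279) and Cyp2b9 (4.64, adjusted p = 0.00235) rose too, Cyp2b9 with 0.913 to 3.51 CPM in CREBH-KO libraries, against at most 0.103 CPM in WT libraries.

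Markers of the pericentral zone were also lower in CREBH-KO livers. Of 8, 6 fell and 0 rose, beside 6.46% and 3.91% of all genes tested. Their summed level was 6591 to 7892 CPM in CREBH-KO libraries, against 14091 to 15159 CPM in WT libraries. Cyp2e1 had 5552, 4500.4 and 5370.4 CPM in CREBH-KO 1, 2 and 3, against 10460, 10819 and 10857 CPM in WT 1, 2 and 3, and Glul, the gene of glutamine synthetase, averaged 515 ± 29.0 CPM in CREBH-KO and 1124 ± 214 CPM in WT livers (adjusted p = 0.00088 and 0.00135). Of 6 periportal markers, Arg1 rose (0.46, adjusted p = 0.0486) and 5 did not pass, with sums of 8637 to 11032 CPM in CREBH-KO and 7066 to 8850 CPM in WT libraries. Among markers of other cells, Sox9 of 5 cholangiocyte, Dcn of 5 stellate and Ptprc of 2 tested lymphocyte markers rose, and the 5 Kupffer cell, 5 endothelial and 3 red cell markers did not pass. The part of these markers in the Mup results was not tested.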

How the data were processed

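RNA of 6 fasted mouse livers (3 CREBH-KO, 3 WT) was sequenced as paired-end reads on an Illumina instrument, per the labels. The authors deposited 1 table of raw read counts per gene and library, and the sample titles name HTSeq. These details were not given in the sources used here (aligner, genome build, HTSeq version, strand setting). Each of the 55536 identifiers matched GENCODE M21 (GRCm38), which supplied symbols, positions and transcripts. HTSeq's summary lines (27.4% to 31.2% of listed reads) entered neither library sizes nor tests.

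The tests used edgeR 4.0.16 under R 4.3.3. Genes kept by filterByExpr (minimum count 10, minimum total 15) numbered 15589. TMM factors, the quasi-likelihood test without covariates and Benjamini-Hochberg adjustment over all genes tested were used, and the whole table was refitted with members replaced by their sums. A positive log2 fold change means higher in CREBH-KO. Tests are two-sided, and the fit was tested on simulated data. Alternatives used other scaling, filters, DESeq2 1.42.0, limma-voom 3.58.1, robust dispersion and left-out libraries.

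The members and gene lists were chosen with earlier results of these data known. Named were all tested members, the growth hormone pathway genes, and at most 6 changed genes per list by mean CPM. Identity and own sequence were computed among annotated transcripts only, since no genome or protein table was used here.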

Additional observations from a re-analysis of the deposited data

How the results depend on the processing

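The count of members that fell was 21 to 24 over the libraries left out in turn and 15 with CREBH-KO 1 alone against WT, where Mup10, Mup22, Mup18, Mup-ps6, Mup-ps7, Mup-ps8, Mup-ps13, Mup-ps14 and Mup-ps16 lost their calls (1 sample assumed to vary like WT). The count that rose was 0 to 2 over the libraries left out, 2 with no filter and 1 with DESeq2's test. The central sum fell in each of the 16 alternatives fixed at the start (-2.49 to -1.83, adjusted p of at most 0.00745; -2.25 to -1.83 over libraries left out), and the divergent sum passed in none of its 16. The family sum was -0.029 to 0.114 over libraries left out, negative without WT 3 (-0.029) and CREBH-KO 2 (-0.01), and -0.02 with all reads of several places added, which come from the whole genome and far outnumber the family's counts, so this bound says little of the family. The log2 ratio of central to divergent genes differed by -2.51 to -2.05 over libraries left out and by -1.69 without Mup7.

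Values near 0 changed sign: Mup3 with no filter (-0.004), without WT 2 (-0.01), WT 3 (-0.07) or CREBH-KO 3 (-0.12) and with CREBH-KO 1 alone (-0.12); Mup-ps21 without WT 1 (-0.21), WT 3 (-0.04) or CREBH-KO 2 (-0.27) and with CREBH-KO 1 alone (-0.63); Mup5 (-0.004) and Mup21 (-0.005) without WT 3; and Mup6 with CREBH-KO 1 alone (-1.53). Over the libraries left out, the highest values were 0.12 for Mup3, 0.439 for Mup-ps21, 0.325 for Mup5 and 0.245 for Mup21. The cause was not tested. With minimum count 50, Mup-ps6, Mup-ps7, Mup-ps8, Mup-ps12 and Mup-ps14 were no longer tested. No paired analysis was possible because no label pairs the samples.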
